A study of Homo sapiens with 14 samples.

Results

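At day 11, the 4 RNA-seq libraries numbered replicate 1 were set against the 4 numbered replicate 2, with 1 library of each number at every dose of CHIR99021 (CHIR), which was 0.7 µM, 3 µM, 5 µM or 7.5 µM; these are 8 of the 14 libraries of the series. They were chosen by their labels alone. The other libraries were pairs of undifferentiated stem cells and of day 16 and day 30 cultures at 7.5 µM. The cells were of the H9 (WA-09) human embryonic stem cell line, on the way to midbrain dopamine neurons. CHIR blocks the kinase GSK3 and so activates WNT signalling. Per the labels, every day 11 culture had 0.7 µM CHIR with Sonic hedgehog protein, LDN and SB431542 at the start, the 4 concentrations of CHIR from day 4, and 3 µM CHIR from day 10. The sample descriptions carry one code for all replicate 1 libraries of day 11 and another for all replicate 2 libraries. They do not say whether cells, RNA or sequencing libraries were handled apart, so culture and laboratory handling cannot be told apart here.

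The markers given for the contrast were NDRG1 and ADM, which hypoxia induces, RRM2B, a ribonucleotide reductase subunit induced by p53, and PROM1, a surface protein of neural progenitors. Cells that lack oxygen stabilise hypoxia-inducible factors, which bind short DNA motifs and raise genes for glucose uptake, glycolysis and blood vessel growth. Among their targets are the EGLN enzymes, oxygen sensors that in turn mark the factors for destruction. The factor p53, amino acid shortage and unfolded protein raise further sets of stress genes. Proliferation shows in the genes of DNA replication and mitosis, and neuronal maturation in genes of the neuronal cytoskeleton and surface. In bulk RNA, fewer cells of a type and less RNA per cell cannot be told apart.

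The 2 sets differed widely. Of 18709 genes tested with dose as a block, 5029 (26.9%) were higher and 5372 (28.7%) lower in replicate 1 libraries (edgeR, adjusted p under 0.05). In 3182 genes (17.0%) every replicate 1 library lay above every replicate 2 library, and in 3605 (19.3%) below. The difference had the same direction in all 4 doses in 66.9% of genes. Replicate number accounted for 50.6% of the summed squares of log2 CPM over the 8 libraries, dose for 36.7% and the remainder for 12.7%. CPM are gene counts scaled to a common library size (TMM). With replicate number as a block, 2108 genes (11.3%) passed the test for any dose effect, and 1095 of these also passed the test between the sets. Since each dose has 1 library in each set, the p-values measure how steady the difference was over the doses, not over repeated cultures.

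The gap between the 2 libraries of a dose was far wider at 0.7, 3 and 5 µM than at 7.5 µM. Among genes with at least 5 CPM in 1 library of the pair, 48.5% were past 2-fold at 0.7 µM, 43.1% at 3 µM, 39.2% at 5 µM and 10.7% at 7.5 µM. The 2 sides of these gaps have 1 library each, so they have no test. The same share was 0.94% in the pair of undifferentiated stem cells, 49.1% at day 16 and 6.56% at day 30. On the first principal component, the 7.5 µM library of replicate 1 lay at -1.8, while the other replicate 1 libraries lay from -101.6 to -92.5 and all replicate 2 libraries from 65.6 to 81.4.

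**Figure D1:**
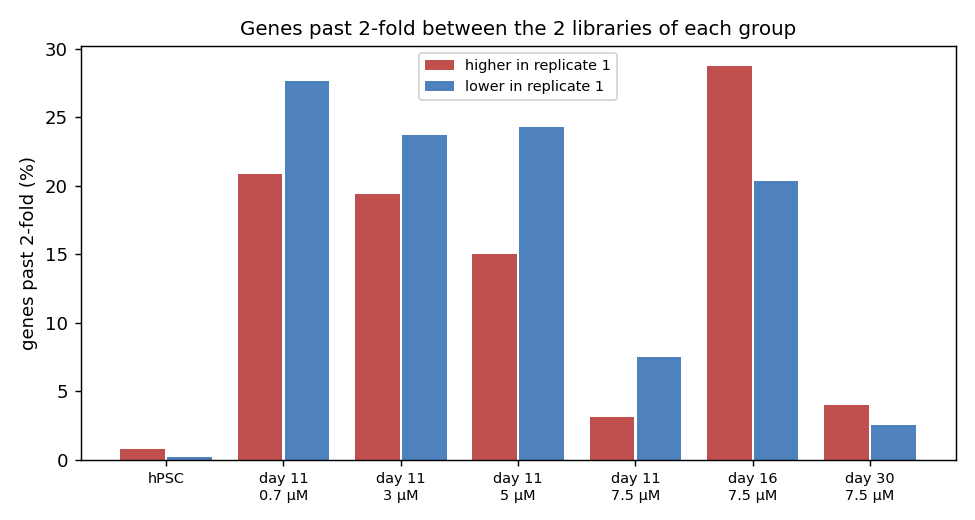
Share of genes past 2-fold between the 2 libraries of each group, in percent of the genes with at least 5 CPM in 1 of them; red bars are genes higher and blue bars genes lower in replicate 1. The pairs at 0.7, 3 and 5 µM and at day 16 reach 39.2% to 49.1% in both directions together, the pair at 7.5 µM 10.7%, and the stem cell pair 0.94%.

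The composition of the reads moved with the sets. Gene counts came to 20.52 to 33.67 M in replicate 1 libraries and 28.4 to 44.76 M in replicate 2 libraries. Reads placed in no gene were 6.88% to 10.05% of all counts in replicate 1 libraries, against 13.04% to 16.42% in replicate 2 libraries. Reads with more than 1 placement were 17.4% to 28.34%, against 15.13% to 17.84%. Genes of ribosomal proteins took 15.29% and 6.94% of gene counts in replicates 1 and 2 at 0.7 µM, 19.67% and 7.7% at 3 µM, 17.65% and 7.06% at 5 µM, and 7.08% and 4.89% at 7.5 µM. In the last 3 measures the 7.5 µM library of replicate 1 was the nearest of its set to the replicate 2 libraries. Their part in the differences below was not tested.

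Short and GC-rich genes tended to be higher, and long and AT-rich genes lower, in replicate 1 libraries. Genes were cut into 5 bins of equal number by the length of their merged exons and by the GC content of their longest transcript. The shortest bin (median 1023 bases) had a median log2 difference of 0.71, and 43.5% of its genes passed as higher; the longest bin (median 10026 bases) had -0.70, and 55.6% passed as lower. The bin richest in GC (median 61.2%) had 0.65, and the poorest (median 38.6%) had -0.74. Over 18206 genes, which are not independent replicates, the rank correlation of the difference was -0.41 with length and 0.42 with GC. At 7.5 µM the longest bin had a median of -0.38, against -0.80, -0.79 and -0.83 at 0.7, 3 and 5 µM. Lists below are therefore also described from a fit with each library's trend on length and GC removed. In that fit 4508 of 18206 genes (24.8%) were higher and 4157 (22.8%) lower. These shares, and 26.9% and 28.7% from the counts as deposited, are the background for the counts of every list below. Of the 10170 calls among these genes, 6454 (63.5%) kept their direction and their call. Whether the trend arose in the cells or in the handling of RNA was not tested, and removing it also removes any biology that follows length or GC.

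**Figure D2:**
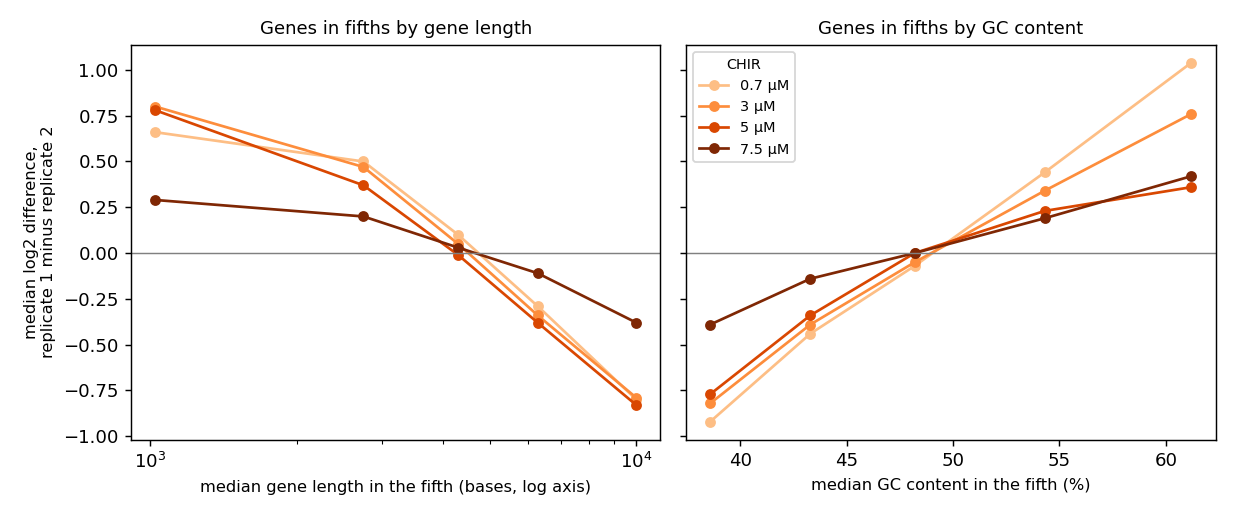
Median log2 difference, replicate 1 minus replicate 2, for genes in 5 bins by merged exon length (left, bases on a log axis) and by GC content (right, percent), 1 line for each CHIR dose. All 4 lines fall with length and climb with GC, and the 7.5 µM line is the flattest on length.

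Hypoxia-induced genes were lower in replicate 1 libraries. Of 29 listed genes, all 29 were tested, 25 were lower and 0 higher, where 28.7% and 26.9% of all genes were, and 15 were lower with no overlap between the sets, where 19.3% of all genes were. Their median log2 difference was -1.75, against -0.02 for all genes tested, and it was -2.03, -1.50, -1.65 and -1.15 from the lowest to the highest dose. With the length and GC trend removed, 21 were lower and 1 higher, and the median was -1.48. The 4 that did not pass were CA12, CA9, FAM162A and the noncoding MIR210HG. The same list had a median of 0.36 in the stem cell pair (24 genes), 0.32 at day 16 (19 genes) and -0.11 at day 30 (18 genes).

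NDRG1 (ENSG00000104419.10), a stress-induced cytoplasmic protein, had 6.31, 49.1, 26.1 and 3.48 CPM in replicate 1 libraries from the lowest to the highest dose (the order kept below), against 173, 247, 162 and 8.24 CPM in replicate 2 libraries. It was lower in replicate 1 at every dose, by a log2 difference of -2.71 ± 0.46 (SE, adjusted p = 0.00113), but the 7.5 µM libraries of both sets were low and the sets overlapped. ADM (ENSG00000148926.5), which encodes the vasodilator peptide adrenomedullin, had 8.11, 41.3, 30.6 and 5.96 CPM, against 94.6, 133, 123 and 13.8 CPM. Its log2 difference was -2.09 ± 0.33 (adjusted p = 0.000854), again in 4 of 4 doses and with overlap through the 7.5 µM library of replicate 2. VEGFA (ENSG00000112715.16), the main growth factor of blood vessels, had 39.5, 63.4, 48.3 and 62.7 CPM, against 314, 420, 323 and 88.5 CPM, with no overlap. Its log2 difference was -2.28 ± 0.38 (adjusted p = 0.00106).

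**Figure D3:**
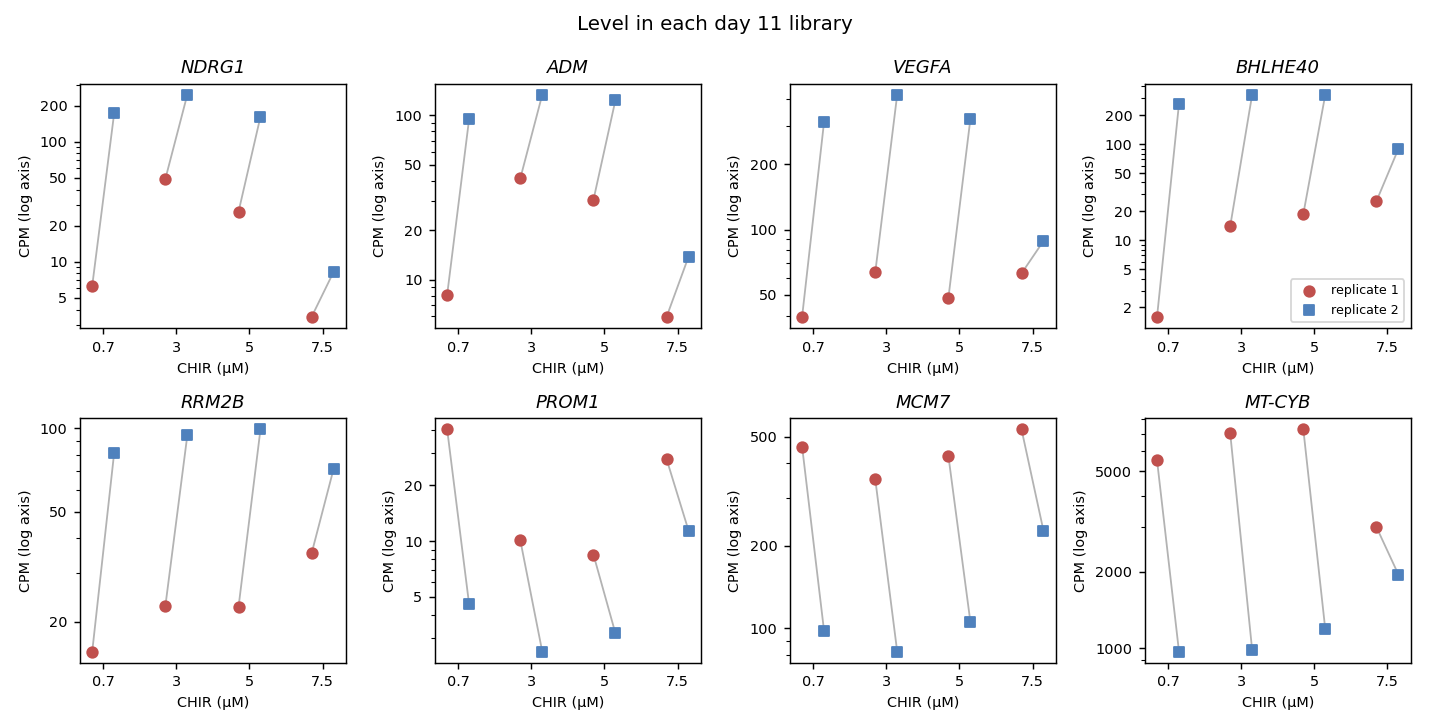
CPM (log axis) of 8 genes at each CHIR dose; red circles are replicate 1 and blue squares replicate 2 libraries, joined within a dose. NDRG1, ADM, VEGFA, BHLHE40 and RRM2B are below replicate 2 in all 4 replicate 1 libraries and PROM1, MCM7 and MT-CYB above, and in all 8 the gap is smallest at 7.5 µM.

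The 4 members with the largest decrease for which a promoter was read are shown with the DNA before their start, since the factors bind a short core motif that can lie there. BHLHE40, a transcriptional repressor of the clock and of differentiation, had 1.60, 14.0, 18.8 and 25.6 CPM in replicate 1 libraries, against 263, 326, 327 and 89.6 CPM in replicate 2 libraries. Its log2 difference was -4.33 ± 0.71 (adjusted p = 0.000993), and the call was lost without either 3 µM library. INSIG2, which holds the sterol sensor in the endoplasmic reticulum, had a log2 difference of -2.85 ± 0.25 (adjusted p = 0.000265). EGLN1, the main oxygen sensor, had -2.64 ± 0.26 (adjusted p = 0.000294). KDM3A, a histone demethylase, had 39.6 to 72.3 CPM in replicate 1 libraries and 214 to 412 CPM in replicate 2 libraries, and a log2 difference of -2.51. None of the 4 overlapped between the sets. The 250 bases before each RefSeq start (GRCh38.p14) are printed 5′ to 3′ on the gene's strand in lower case, with capitals at ACGTG and GCGTG and at their reverse complements CACGT and CACGC.
BHLHE40, chr3:4979187-4979436 (+ strand): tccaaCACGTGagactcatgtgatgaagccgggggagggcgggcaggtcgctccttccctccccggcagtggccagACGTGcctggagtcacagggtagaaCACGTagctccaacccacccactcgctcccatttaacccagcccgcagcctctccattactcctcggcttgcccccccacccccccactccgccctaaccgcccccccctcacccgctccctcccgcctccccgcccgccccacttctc
INSIG2, chr2:118088221-118088470 (+ strand): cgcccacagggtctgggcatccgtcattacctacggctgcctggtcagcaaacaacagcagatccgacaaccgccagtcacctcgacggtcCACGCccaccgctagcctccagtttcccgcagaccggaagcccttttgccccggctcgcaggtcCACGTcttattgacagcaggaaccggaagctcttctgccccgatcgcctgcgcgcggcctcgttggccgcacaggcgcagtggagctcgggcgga
EGLN1, chr1:231422288-231422537 (- strand): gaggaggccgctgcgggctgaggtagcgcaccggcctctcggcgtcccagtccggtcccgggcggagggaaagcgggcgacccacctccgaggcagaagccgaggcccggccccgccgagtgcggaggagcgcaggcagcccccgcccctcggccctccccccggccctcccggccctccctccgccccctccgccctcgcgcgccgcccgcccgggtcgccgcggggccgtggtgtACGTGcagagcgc
KDM3A, chr2:86441121-86441370 (+ strand): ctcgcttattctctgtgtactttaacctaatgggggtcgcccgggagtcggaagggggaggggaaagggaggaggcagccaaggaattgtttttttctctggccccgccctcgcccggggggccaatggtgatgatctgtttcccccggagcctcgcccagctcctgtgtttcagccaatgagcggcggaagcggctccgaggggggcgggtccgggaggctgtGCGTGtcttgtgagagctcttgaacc
BHLHE40 held 4 matches, 2 of which overlap in 1 palindrome, INSIG2 2, and EGLN1 and KDM3A 1 each. Of the 25 listed genes with a promoter in the RefSeq table, 21 (84.0%) held at least 1 match, against 43.1% of all 27305 promoters and 56.2% of the promoters of 12064 tested genes. The share was 57.7% for genes higher and 56.9% for genes lower in replicate 1. A match shows only that these letters are there.

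Glycolysis genes moved in both directions, and the 4 largest differences were of genes that were lower. Of 23 genes tested, 6 were higher and 9 lower in replicate 1, where 26.9% and 28.7% of all genes were. The median was -0.23. HK2, the first enzyme of glycolysis, had 13.2, 69.3, 50.3 and 57.8 CPM in replicate 1 libraries, against 238, 367, 384 and 227 CPM in replicate 2 libraries (log2 difference -2.85 ± 0.33, adjusted p = 0.000386). PFKFB3, which makes the activator of phosphofructokinase, had -2.62 ± 0.25 (adjusted p = 0.000265). The glucose transporters SLC2A1 and SLC2A3 had -2.09 ± 0.47 and -1.96 ± 0.29. SLC2A1 had 63.0 CPM in replicate 1 and 1175 CPM in replicate 2 at 0.7 µM, and 338 and 552 CPM at 7.5 µM. The 6 higher genes were ALDOC, ENO1, GAPDH, LDHB, PFKL and TPI1, by 0.55 to 0.83, and were named after their values were seen. So were the other lower genes, ENO2, PFKFB4, PFKP, LDHA and the lactate transporter SLC16A1, with -1.37 to -0.59. The higher members had a median exon length of 2982 bases and the lower ones 6064. With the trend removed, 2 were higher and 8 lower.

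Targets of p53 were split. Of 27 tested, 6 were higher and 14 lower in replicate 1 libraries, where 26.9% and 28.7% of all genes were. The median was -0.73. By dose the median was -1.21, -0.72, -0.68 and 0.03, so the list's median was near 0 at 7.5 µM. RRM2B (ENSG00000048392.7) had 15.6, 22.8, 22.6 and 35.4 CPM in replicate 1 libraries, against 81.6, 94.3, 99.1 and 71.4 CPM in replicate 2 libraries, with no overlap (log2 difference -1.90 ± 0.24, adjusted p = 0.000449). ZMAT3, an RNA-binding target, had -2.30 ± 0.29 and EDA2R, a death receptor family member, -1.79 ± 0.34. GDF15, a secreted stress hormone, had 2.04, 14.3, 13.5 and 6.44 CPM, against 30.3, 83.1, 70.3 and 5.80 CPM, so that only the 7.5 µM pair did not follow. CDKN1A, the p21 cell cycle inhibitor, had 24.3, 205, 182 and 58.9 CPM, against 147, 279, 306 and 70.9 CPM (log2 difference -0.98 ± 0.34, adjusted p = 0.0322), and its call was lost without either 0.7 µM library. The higher members, such as PHLDA3 and SESN2, had a median GC of 59.2% and the lower ones 43.8%. After removal of the trend, 4 were higher and 12 lower.

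Genes of the integrated stress response were not called higher much more often than other genes, and their median depended on dose. Of 20 tested, 7 were higher and 2 lower in replicate 1, where 26.9% and 28.7% of all genes were. The median over the doses was 0.46, and -0.06 to 0.69 as each library was left out; by dose it was -0.14, -0.18, 0.60 and 1.35 from 0.7 to 7.5 µM. CHAC1, which breaks down glutathione, had 17.1, 2.74, 27.3 and 24.1 CPM in replicate 1 libraries, against 0.933, 0.832, 2.05 and 5.13 CPM in replicate 2 libraries (log2 difference 3.02 ± 0.40, adjusted p = 0.00054). PHGDH, which starts serine synthesis, had 286 to 502 CPM, against 89.2 to 130 CPM (1.76 ± 0.17, adjusted p = 0.000265), with no overlap. TRIB3, a pseudokinase that this response induces, had 7.62, 7.64, 19.9 and 43.4 CPM, against 2.23, 4.85, 6.62 and 5.58 CPM. DDIT3, the CHOP transcription factor, did not pass (0.41 ± 0.30, adjusted p = 0.261), with 18.8 and 24.8 CPM in replicate 1 at 0.7 and 3 µM, against 23.6 and 32.3 CPM in replicate 2, and 74.8 and 47.5 CPM at 5 and 7.5 µM, against 37.9 and 18.4 CPM. With the trend removed 7 were higher and 2 lower.

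Other stress lists showed no common direction. In the unfolded protein response, 4 of 16 were higher and 3 lower (median 0.18). HSPA5, its main chaperone, had -0.09 ± 0.19 (adjusted p = 0.716), while the secreted factor MANF had 1.02 ± 0.23 and SEL1L, of the pathway that removes misfolded proteins, -1.51 ± 0.22. In the heat shock list 4 of 14 were higher and 3 lower (median 0.17), with HSPA1A at 1.22 ± 0.34 and the small chaperone CRYAB at -2.71 ± 0.65. The HSPA1A call was lost without any 1 of the 0.7 or 5 µM libraries, and its near-identical copy HSPA1B makes its reads uncertain. In the oxidative stress list 5 of 14 were higher and 5 lower (median -0.23); GCLC, NQO1 and HMOX1, targets of NRF2, were lower, with log2 differences of -1.47, -1.13 and -1.07, and OSGIN1 was higher (2.14). Among immediate early genes 2 of 16 were higher and 3 lower, with FOSB at 1.28 ± 0.18, EGR3 at -1.89 ± 0.31, and FOS, which did not pass, at 0.38 ± 0.21. Of 8 interferon-induced genes that were tested, of 15 listed, 2 were higher and 2 lower. Counts higher and lower after trend removal were 5 and 3 in the unfolded protein response, 2 and 2 in heat shock, 3 and 5 in oxidative stress, 1 and 6 in immediate early genes and 1 and 2 in the interferon list.

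**Figure D4:**
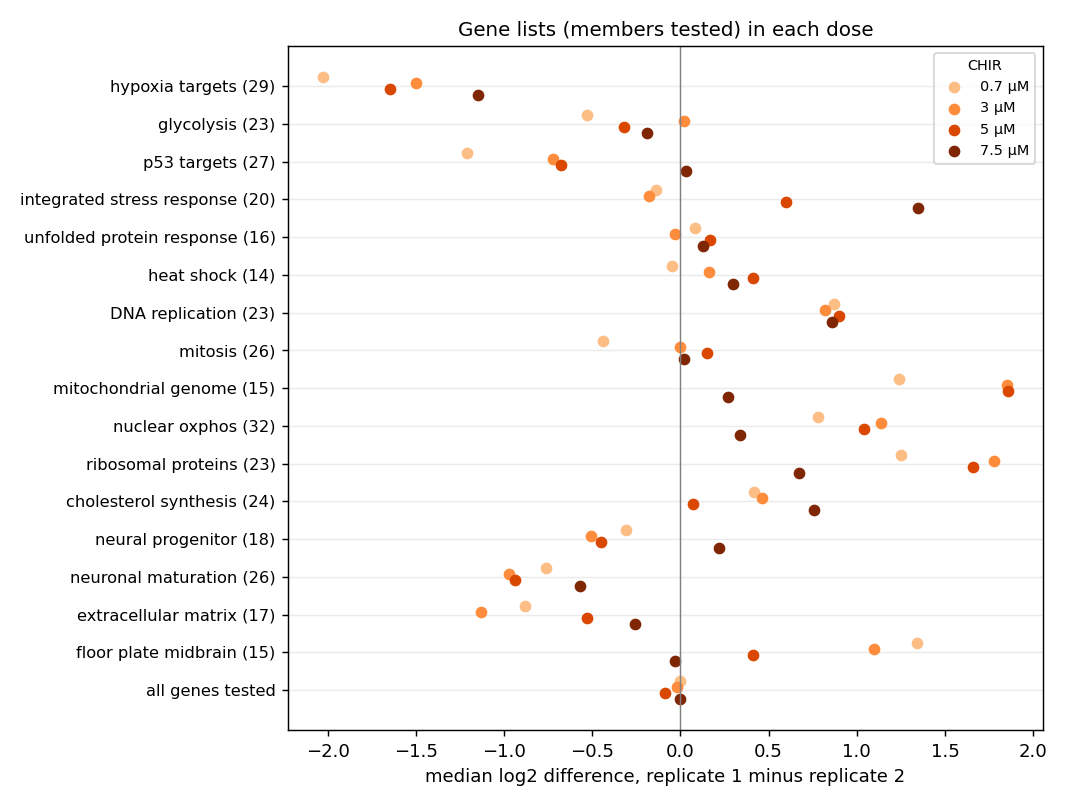
Median log2 difference, replicate 1 minus replicate 2, of 16 gene lists and of all genes tested, 1 dot for each CHIR dose; the number of members tested is in parentheses. The hypoxia list lies left of 0 at every dose (-2.03 to -1.15), DNA replication right of 0 with little spread (0.82 to 0.90), and the mitochondrial genome at 1.24 to 1.86 at the 3 lower doses and 0.27 at 7.5 µM.

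Most genes of DNA replication were higher in replicate 1, with a positive median at every dose. Of 23 tested, 18 were higher and 1, POLA1, was lower, where 26.9% and 28.7% of all genes were. Of the higher ones 10 had no overlap, where 17.0% of all genes were higher with no overlap. The median was 0.87, 0.82, 0.90 and 0.86 from 0.7 to 7.5 µM, and with the trend removed 20 of 22 were higher and 0 lower. CDT1, which licenses replication origins, had 54.9, 73.1, 55.8 and 36.5 CPM in replicate 1 libraries, against 9.05, 11.8, 17.5 and 14.0 CPM in replicate 2 libraries (log2 difference 2.07 ± 0.25, adjusted p = 0.000407). E2F1, the transcription factor of S phase entry, had 43.2 to 63.6 CPM, against 9.22 to 21.0 CPM (2.05 ± 0.19, adjusted p = 0.000265). MCM7, a subunit of the replicative helicase, had 460, 350, 425 and 531 CPM, against 98.1, 82.4, 106 and 227 CPM (1.89 ± 0.21, adjusted p = 0.000371). FEN1, the flap nuclease of lagging strand synthesis, had 1.75 ± 0.22. RBL2 and RB1, which restrain E2F factors, were lower (-2.11 ± 0.31 and -1.47 ± 0.20). With the trend removed their differences shrank to -1.46 and -0.60, and both still passed. Of 15 G1 regulators tested, 2 were higher and 5 lower, with the same counts once the trend was removed.

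Genes of mitosis did not share that direction. Of 26 tested, 7 were higher and 7 lower (median -0.12), shares near the 26.9% and 28.7% of all genes. AURKB and BIRC5, of the chromosomal passenger complex, and CDC20, an activator of the anaphase-promoting complex, were higher by 1.43, 1.43 and 1.22. ASPM, a spindle pole protein, was lower (-1.20 ± 0.19). MKI67, the common marker of cycling cells, had 72.2, 44.4, 73.3 and 247 CPM in replicate 1 libraries, against 107, 57.8, 86.6 and 333 CPM in replicate 2 libraries, and did not pass (-0.40 ± 0.16, adjusted p = 0.0568). Whether MKI67 passed depended on the 7.5 µM libraries, the filter on low counts and the length trend. CCNB1, the mitotic cyclin, had 0.50 ± 0.18 (adjusted p = 0.034), a call lost without any 1 of the 0.7, 3 or 5 µM libraries. The higher members had a median exon length of 2558 bases and the lower ones 6437. After removal of the trend, 10 were higher and 0 lower, with a median of 0.25. Of 19 histone genes, 10 were tested and 3, all of the H1 linker family, were higher; of 7 with a length and GC, 1 was higher once the trend was removed.

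Transcripts of the mitochondrial genome were higher in replicate 1 libraries, unequally. Of 15 tested, 9 were higher and 1, MT-ND6, lower, or 8 and 2 with the trend removed (median 1.26 from the counts as deposited and 1.02 with the trend removed). The median was 1.24, 1.85, 1.86 and 0.27 from 0.7 to 7.5 µM. MT-CYB, cytochrome b of complex III, had 5512, 7057, 7295 and 3001 CPM in replicate 1 libraries, against 969, 985, 1186 and 1951 CPM in replicate 2 libraries (log2 difference 2.18 ± 0.36, adjusted p = 0.00102), with no overlap. MT-CO3 had 1.80 ± 0.32, MT-ATP6 1.72 ± 0.30 and MT-ND3 1.64 ± 0.34. MT-CO1, of complex IV and cut from the same long transcript, had 8218, 13490, 12388 and 7250 CPM, against 7625, 6754, 7122 and 6700 CPM, and did not pass (0.50 ± 0.24, adjusted p = 0.0988). It passed when either 7.5 µM library was left out and in the test of another program, DESeq2. Transcripts of the mitochondrial genome together took 4.71% to 8.69% of gene counts in replicate 1 libraries and 3.25% to 3.88% in replicate 2 libraries.

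Nuclear genes of the respiratory chain and of the ribosome went the same way. Of 32 nuclear genes of oxidative phosphorylation, 22 were higher and 1, NDUFS1, lower, with a median of 0.94 and of 0.61 with the trend removed. NDUFB10 and NDUFS3 of complex I had 1.36 ± 0.22 and 1.30 ± 0.21, COX4I1 of complex IV 1.27 ± 0.23 and ATP5G1 of the ATP synthase 1.23 ± 0.21. By dose the median was 0.78, 1.14, 1.04 and 0.34. All 23 ribosomal protein genes listed were higher, with a median of 1.35, and 20 stayed called with the trend removed (median 1.19). RPLP1 had 1960, 3333, 2434 and 744 CPM in replicate 1 libraries, against 404, 726, 738 and 342 CPM in replicate 2 libraries (1.83 ± 0.24, adjusted p = 0.000502). It was the only one of the 23 whose sets did not overlap, where 17.0% of all genes were higher with no overlap. Ribosomal protein genes have many processed pseudogenes, to which reads can be lost or split. The day 16 pair had the same direction, with median gaps of 1.03 for the mitochondrial genome, 1.34 for nuclear genes of oxidative phosphorylation and 1.22 for ribosomal proteins. This was not particular to them, as most lists had a positive median in that pair, against -0.19 for all its genes. Neuronal maturation had 2.26 there, opposite to day 11. Only p53 targets, interferon, hedgehog targets and mesenchymal and vascular genes were negative. In the stem cell pair the medians of the mitochondrial genome, oxidative phosphorylation and ribosomal proteins were -0.33, -0.16 and -0.11. At day 30 they were 0.45, -0.15 and -0.21.

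**Figure D5:**
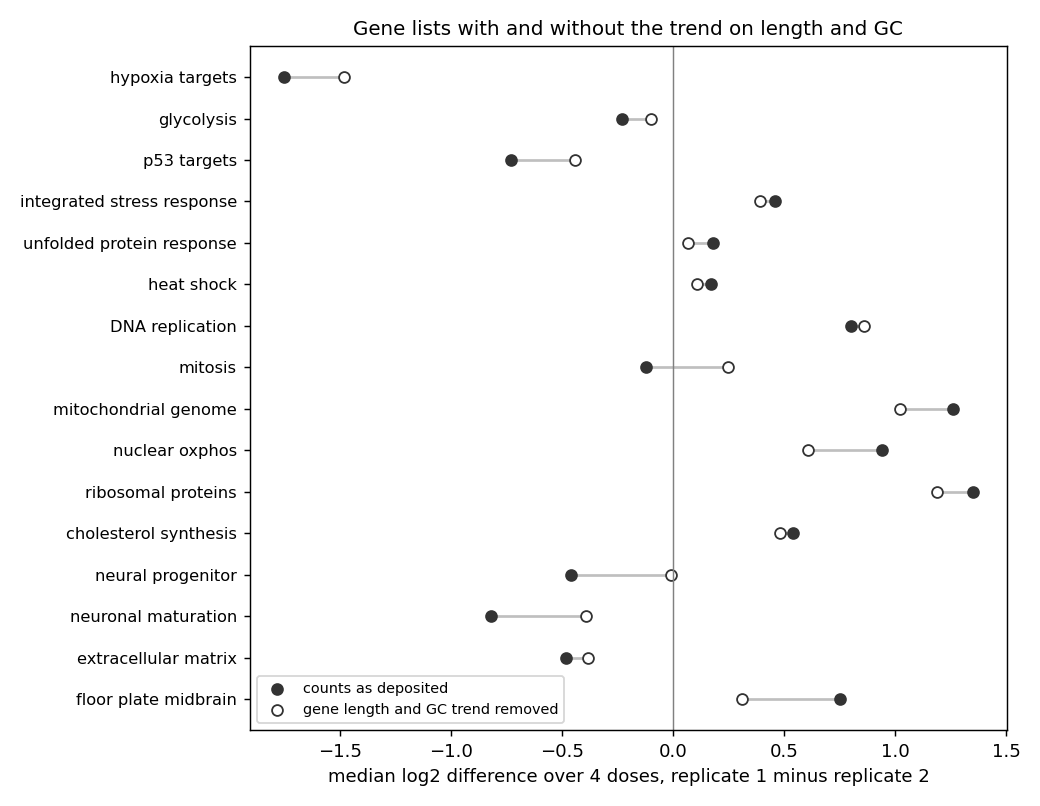
Median log2 difference over the 4 doses, replicate 1 minus replicate 2, of 16 gene lists from the counts as deposited (filled) and with each library's trend on gene length and GC removed (open). The hypoxia list moves from -1.75 to -1.48 and DNA replication from 0.80 to 0.86, while mitosis crosses 0 (-0.12 to 0.25) and neural progenitors end at -0.01.

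Sterol genes were split. Of 24 genes of cholesterol synthesis, 12 were higher and 5 lower (median 0.54), or 12 and 3 with the trend removed (median 0.48). Among all genes 26.9% were higher and 28.7% lower, or 24.8% and 22.8% with the trend removed. ACAT2, which joins 2 acetyl groups at the start of the pathway, had 84.4, 107, 111 and 147 CPM in replicate 1 libraries, against 23.1, 26.4, 36.2 and 45.7 CPM in replicate 2 libraries (log2 difference 1.80 ± 0.17, adjusted p = 0.000265). EBP and MVD, a later and an earlier enzyme, had 1.72 ± 0.19 and 1.64 ± 0.26. STARD4, a sterol carrier, had 11.6, 46.4, 28.0 and 30.2 CPM, against 167, 279, 215 and 78.8 CPM (-2.69 ± 0.34). HMGCS1, an early enzyme under sterol control, did not pass (-0.09 ± 0.22, adjusted p = 0.735) unless either 7.5 µM library was left out. Of 10 genes of fatty acid synthesis 1 was higher and 3 were lower, and of the 9 with a length and GC 2 were higher and 1 lower once the trend was removed.

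Neuronal genes were lower in replicate 1 more often than higher. Of 27 genes of neuronal maturation, 26 were tested, 2 were higher and 14 lower, where 26.9% and 28.7% of all genes were. The median was -0.82. NEFM and NEFL, subunits of neurofilaments, had -2.21 ± 0.45 and -1.90 ± 0.29. NEFM stood at 3.01, 10.1, 21.3 and 22.8 CPM in replicate 1 libraries, against 49.3, 63.2, 75.1 and 33.7 CPM in replicate 2 libraries. L1CAM, a neuronal adhesion molecule, had 0.732 to 2.37 CPM, against 3.83 to 13.2 CPM (-2.60 ± 0.48). DCX, a microtubule protein of young neurons, had 56.8, 45.1, 22.4 and 21.5 CPM, against 131, 76.6, 51.4 and 52.5 CPM (-1.12 ± 0.17, adjusted p = 0.000785). TUBB3, the neuronal tubulin, had 16.1, 27.0, 24.1 and 26.4 CPM, against 17.7, 31.5, 29.2 and 13.0 CPM, and did not pass (0.09 ± 0.24, adjusted p = 0.768). The lower members had a median exon length of 6494 bases and a GC of 43.0%. With the trend removed 3 of 25 were higher and 7 lower, where 24.8% and 22.8% of all genes in that fit were. Lower calls were then not much more frequent than among all genes. The median was -0.39, and DCX no longer passed (-0.23, adjusted p = 0.298).

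Genes that change as these cultures age were taken from the later libraries. Between day 16 and day 30 of the 7.5 µM protocol, 1053 genes (6.82% of 15435) were higher and 649 (4.20%) lower at day 30. Of those higher at day 30, 444 were tested at day 11, where 20% were higher and 33.3% lower in replicate 1, against 25.7% and 32.8% of all 11198 genes in both fits. Of those lower at day 30, 465 were tested, and 29.9% were higher and 26.5% lower. The medians were -0.31 for genes higher at day 30, 0.05 for genes lower at day 30 and -0.09 for all. After removal of the trend, they were -0.14, 0.19 and 0.08. The late libraries held 5.41 to 6.34 M gene counts, and the number of genes called between day 16 and day 30 ranged from 39 to 8078 as each library was left out.

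Progenitor and regional genes moved in both directions. Of 18 neural progenitor genes 6 were higher and 7 lower, or 7 and 5 with the trend removed. Among all genes 26.9% were higher and 28.7% lower, or 24.8% and 22.8% with the trend removed. PROM1 (ENSG00000007062.7) had 40.1, 10.1, 8.45 and 27.7 CPM in replicate 1 libraries, against 4.56, 2.53, 3.18 and 11.4 CPM in replicate 2 libraries. It was higher in 4 of 4 doses, with overlap between doses (log2 difference 1.95 ± 0.31, adjusted p = 0.000893). SOX3, a transcription factor of early neural cells, had 12.1 to 41.8 CPM, against 2.18 to 4.07 CPM (2.47 ± 0.29). FABP7, a fatty acid carrier of radial glia, had 1.54 ± 0.30. SOX2, of the same family as SOX3, had 155 to 201 CPM, against 195 to 431 CPM (-0.67 ± 0.20, adjusted p = 0.0181), a call lost without any 1 of the 0.7, 3 or 5 µM libraries. HES6, a Notch pathway regulator, had 16.6 to 27.0 CPM, against 1.5 to 4.23 CPM (3.00 ± 0.34), while the ligand JAG1 had -1.63 ± 0.28; in all, 2 of 16 proneural and Notch genes were higher and 5 lower, or 1 and 4 with the trend removed.

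Defining factors of midbrain floor plate were present in both sets. OTX2, a forebrain and midbrain transcription factor, had 88.8, 122, 160 and 307 CPM in replicate 1 libraries, against 130, 114, 142 and 290 CPM in replicate 2 libraries (log2 difference -0.05 ± 0.18, adjusted p = 0.836). LMX1A, of the midbrain floor plate, had 41.0 to 91.1 CPM, against 27.8 to 102 CPM, and did not pass (0.45 ± 0.20, adjusted p = 0.0857) unless a 7.5 µM library was left out. FOXA2, which specifies the floor plate, had 210, 115, 125 and 89.2 CPM, against 70.4, 51.5, 57.9 and 71.2 CPM, and was higher (1.05 ± 0.22, adjusted p = 0.00278), a call lost with the trend removed (0.34, adjusted p = 0.0749). Of 15 floor plate and midbrain genes tested 4 were higher, a share near the 26.9% of all genes, and 0 lower, where 28.7% of all genes were, with medians of 1.34, 1.10, 0.41 and -0.03 from 0.7 to 7.5 µM. With the trend removed 1 of 14 was higher and 1 lower, and the median was 0.31. Of 14 WNT target genes, 2 were higher and 5 lower, or 1 and 6 with the trend removed. AXIN2, a feedback inhibitor of WNT, had 24.7, 116, 148 and 235 CPM, against 69.0, 161, 239 and 270 CPM (-0.70 ± 0.22, adjusted p = 0.0205), climbing with dose in both sets. Its call was lost without any 1 of the 0.7 or 5 µM libraries.

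Matrix genes were lower in replicate 1 more often than higher, but not once the length trend alone was removed. Of 17 tested, 1 was higher and 8 lower (median -0.48), where 26.9% and 28.7% of all genes were. Their median exon length was 9636 bases, against 4304 for all genes tested. With only the length trend removed, 6 were higher and 6 lower (median 0.03). With the trend on length and GC removed, 5 were higher and 8 lower (median -0.38). COL1A2, a fibrillar collagen chain, had 36.5, 48.1, 63.0 and 31.3 CPM in replicate 1 libraries, against 221, 255, 403 and 217 CPM in replicate 2 libraries (log2 difference -2.62 ± 0.18, adjusted p = 0.000265), with gaps of -2.79 to -2.40 over the doses. COL11A1 had -2.62 ± 0.26 and the proteoglycan VCAN -2.23 ± 0.33. Among 8 mesenchymal and vascular genes tested, of 12 listed, 1 was higher and 3 lower, with the same counts once the trend was removed. KDR, the receptor of VEGFA, had 0.144 to 0.563 CPM, against 4.36 to 33.3 CPM (-4.88 ± 0.51). CDH5 of endothelial cells was at or below 0.0481 CPM in replicate 1 libraries and 0.125 CPM in replicate 2 libraries.

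Markers of other cell types were mixed, some at or near 0 in both sets and some higher in 1 set. Of neural crest genes 8 of 11 were tested, 1 was higher and 4 lower (0 and 4 with the trend removed); their summed level was 28.5 to 74.1 CPM in replicate 1 libraries and 54.1 to 111 CPM in replicate 2 libraries. SOX10, the crest's defining factor, reached at most 0.0594 CPM in replicate 1 libraries and 0.38 CPM in replicate 2 libraries. NANOG was at 0 in 3 of 4 replicate 1 and 4 of 4 replicate 2 libraries; of 10 pluripotency genes tested 0 were higher and 6 lower (0 and 4 with the trend removed), led by SALL4 (-2.08 ± 0.33). TTR, a choroid plexus transport protein, had 27.5, 15.4, 8.61 and 3.43 CPM, against 2.91, 1.01, 0.592 and 1.46 CPM (3.06 ± 0.43), and 3 of 6 choroid genes were higher, or 1 with the trend removed. KCNJ13, a choroid plexus potassium channel below the filter on low counts, was at 0.0375 to 3.41 CPM in replicate 1 libraries and 0 to 0.156 CPM in replicate 2 libraries. SOX17 of endoderm and the globins HBB, HBA1 and HBG1 were at most 0.0487 CPM in any library. Of 8 surface ectoderm and placode genes 2 were higher and 3 lower (1 and 4 with the trend removed), with CDH1 at 0.160 to 1.83 CPM, against 0.904 to 31.5 CPM (-4.06 ± 0.46), while EPCAM did not pass. The part of such cells in the differences was not tested.

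The 10 genes of largest increase and the 10 of largest decrease included the list members TTR, CHAC1, KDR, BHLHE40 and CDH1. The higher ones were SLC2A9, a urate transporter, the keratins KRT7 and KRT77, RAMP1, a partner of the calcitonin receptor, DIRAS3, an imprinted small GTPase, FAM181A, CACNG6, TTR, CHAC1 and FAM132A, with log2 differences of 5.27 (SLC2A9) to 3.01 (FAM132A). SLC2A9 had 6.36, 4.32, 5.35 and 4.02 CPM in replicate 1 libraries, against 0.0217, 0.0693, 0.0808 and 0.399 CPM in replicate 2 libraries. DIRAS3 had 5.05 to 7.91 CPM, against 0.347 to 0.984 CPM (3.56 ± 0.33, adjusted p = 0.000265), with gaps of 4.28, 3.52, 3.16 and 2.86 from the lowest to the highest dose. The lower ones included KDR, CRYBG3 (ENSG00000233280.2, 1 of 2 entries of that symbol), the clock repressors BHLHE41 and BHLHE40, ZBED6, NFAT5, CDH1, ZDBF2 and ICAM1, with -4.88 (KDR) to -3.93 (ICAM1). NFAT5, the transcription factor of osmotic stress, had 6.41, 7.16, 4.28 and 20.5 CPM, against 198, 167, 136 and 118 CPM (-4.26 ± 0.41, adjusted p = 0.000265). ZDBF2, an imprinted gene, had 16.1, 23.5, 14.5 and 29.7 CPM, against 486, 364, 282 and 178 CPM. NFAT5, ZBED6 and ZDBF2 have merged exons of 16401, 12481 and 10912 bases, and with the trend removed their differences were -2.98, -3.25 and -2.79. ZBED6 lies within an intron of another gene.

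The difference between the sets was itself tested for being unlike at 7.5 µM. That dose was picked from earlier results of these data, in which its replicate 1 library lay between the sets. The adjusted p-values take no account of that choice, and the 7.5 µM side has 1 library in each set. Of 19760 genes, 680 (3.44%) passed, 591 with a positive and 89 with a negative change, where a positive change means a less negative or more positive difference at 7.5 µM. Of these 680, 659 had a smaller difference at 7.5 µM than on average at the other doses, as had 75.5% of all genes tested between the sets. NFAT5 (2.30, adjusted p = 0.0193), VEGFA (2.33, adjusted p = 0.0178), RRM2B (1.18, adjusted p = 0.049) and MT-CYB (-2.03, adjusted p = 0.034) were among them. NDRG1, ADM and PROM1 did not pass (1.93, 1.17 and -0.93). The count fell to 74 among protein-coding nuclear genes and to 0 with at least 5 CPM in 4 libraries, where 3840 genes had an unadjusted p under 0.05 in the edgeR test.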

How the data were processed

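Per the submitters' processing notes, STAR 2.4.2a, featureCounts 1.4.2, HTSeq 0.5.3, DESeq2 1.12.4 and the hg19 build were used; the sources used here do not give the library kit or strand setting. Total RNA was extracted per the labels' protocols. The authors deposited raw read counts per gene, 1 table per library, with 57445 gene entries and 5 summary entries in the tables of day 11; the summary entries (37.41% to 44.27% of counts) were kept out of library sizes and tests. From these counts, edgeR 4.0.16 (TMM, filterByExpr, quasi-likelihood F-test, R 4.3.3) gave log2 differences, replicate 1 minus replicate 2, with dose as a block, 3 residual degrees of freedom and Benjamini-Hochberg adjustment over all genes tested; SE are of log2 differences. The interaction fit had 2 residual degrees of freedom. Gaps between single libraries are differences of log2 CPM with a prior count of 2. Gene lengths and GC came from GENCODE 29, joined by identifier, so no coordinates of the files are given; promoters came from RefSeq (GRCh38.p14). Trends on length and GC were removed with a loess curve (span 0.3) per library, an alternative chosen after seeing the data, as was leaving out the 7.5 µM pair.

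Named genes were the 10 with the largest increase and the 10 with the largest decrease that passed, with a mean of at least 5 CPM in the higher set and 1 direction in all 4 doses; up to 4 passing members of each list by size; a fixed set of 20 genes; and the 6 largest interactions in each direction. Others that are named were chosen after their values were seen. One gene that the rule names is not reported here. The members and lists were chosen with earlier results of these data known. The fits were tested on simulated counts. Alternatives were DESeq2 1.42.0 and its size factors, other filters, thinned counts, protein-coding genes, trend removal, fits without blocks, and leaving out each library. The replicate numbers were taken to pair the libraries of a set, from the shared code in the labels: gaps between replicates correlated at 0.66 to 0.87 between doses over 18709 genes.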

Additional observations from a re-analysis of the deposited data

Results flagged for a closer look

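For 12 genes the difference between the replicate 1 and replicate 2 libraries at 7.5 µM was set apart from that at the other doses by the test of that change itself (edgeR, adjusted p of 0.0178 to 0.0424). They are the 6 largest in each direction. Each value is the log2 difference at 7.5 µM minus the mean log2 difference at 0.7, 3 and 5 µM. The dose set apart was picked from earlier results of these data, which the adjusted p-values do not take into account. The 6 positive changes were 4.23 for CRYAB, 3.53 for AHNAK2, 3.13 for SPRY4, 3.07 for PCDHAC2, 3.05 for FRRS1 and 3.01 for GDF15. All of these were lower in replicate 1 libraries at the 3 lower doses. CRYAB, a small chaperone, had 0.583, 1.59, 0.676 and 0.559 CPM in replicate 1 libraries, against 11.5, 15.6, 5.68 and 0.346 CPM in replicate 2 libraries. SPRY4, a feedback inhibitor of growth factor signalling, had 0.486, 2.21, 3.77 and 17.9 CPM, against 15.8, 22.6, 34.7 and 26.2 CPM. PCDHAC2 shares exons with other genes of its protocadherin cluster, so its counts are uncertain.

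The 6 negative changes were -4.56 for KRT7, -2.71 for ME3, -2.66 for CITED4, -2.53 for VWA3A, -2.4 for CORIN and -2.4 for TTR. KRT7, a keratin, had 39.5, 14.6, 17.2 and 2.90 CPM in replicate 1 libraries, against 0.694, 0.277, 0.162 and 1.06 CPM in replicate 2 libraries. CORIN, a protease of the floor plate, had 51.7, 6.82, 3.83 and 1.78 CPM, against 14.3, 2.15, 1.62 and 3.08 CPM. Among protein-coding nuclear genes alone 1 of the 12 still passed, and with at least 5 CPM in 4 libraries 0 of the 5 that remained. With the length trend removed 6 passed, and with length and GC 10.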

How the results depend on the processing

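Of the 10401 genes that differed between the sets, 6601 had an absolute log2 difference of at least 1; the count was 7461 to 12187 as each library was left out, and its other alternatives stayed within 1.5 times. The 680 genes unlike at 7.5 µM were 1644 with DESeq2, 2341 with no filter, 74 among protein-coding nuclear genes, 111 with the length trend removed, and 0 both with at least 5 CPM in 4 libraries and with a straight line on log2 dose (3840 and 3105 genes at an unadjusted p under 0.05 in edgeR). Leaving out a library of 0.7, 3 or 5 µM gave 594 to 4356, and neither 7.5 µM library could be left out of this test. Genes with a dose effect, 2108 with the replicate number as a block, were 0 with no replicate block (1206 at an unadjusted p under 0.05), 3923 with DESeq2, 4765 with no filter, 1150 with at least 5 CPM, and 1302 to 5547 as each library was left out. Between day 30 and day 16, 1702 genes passed and 1067 with the replicate block. Day 16 and day 30 gaps correlated at -0.27, which does not settle whether the replicate numbers pair those samples. Leaving out each of those libraries gave 39 to 8078. At 4-fold the shares of genes past the threshold were 14.3%, 8.71%, 6.98% and 1.09% from 0.7 to 7.5 µM, and at 1.5-fold 65.6%, 62.3% and 33.4% at 3, 5 and 7.5 µM. With length and GC removed, log2 differences changed sign for HSPB1 (-0.07), ELOVL6 (0.21) and PTCH1 (0.00, and 0.14 with length alone). Of 170 named genes 160 passed, and 123 passed in every fit that left out 1 library; 142 to 163 of the 170 had the same direction and side of the threshold in any 1 such fit. Most of the 170 were named because they had passed, so these counts do not describe genes at large. Leaving out 1 library removes its dose from the contrast. Counts thinned to the smallest library gave 10038 genes that differed between the sets and 654 unlike at 7.5 µM.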
